A study of Rattus norvegicus with 6 samples.

Results

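The miRNAs of the vessel wall were examined in left ventricular tissue of OLETF rats, which are obese, become diabetic with age and carry the diabetes label here, and of LETO rats, labelled as healthy controls without diabetes. The members were the assays named exactly miR-126-3p, miR-126-5p, miR-143, miR-145, miR-221 and miR-222 once the species prefix and the assay number had been removed. This gave 6 of 584 miRNA assays, all 6 on the same TaqMan card and each in 1 well per sample. There were 3 OLETF and 3 LETO samples, each from the left ventricle, and neither the age of the rats nor any treatment is given in the labels. Strain, obesity and diabetes cannot be told apart in this design. As the samples were whole tissue, fewer cells of a type and less miRNA per cell cannot be told apart either.

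miR-126 is the classic endothelial miRNA. Both strands of its hairpin are used: miR-126-3p enhances vascular growth factor signalling by repressing its inhibitors, and miR-126-5p supports endothelial proliferation. miR-143 and miR-145 are made from 1 cluster, are abundant in smooth muscle, and keep smooth muscle cells contractile by repressing factors such as Klf4 and Elk1. miR-221 and miR-222 are also clustered and are found in endothelial and smooth muscle cells. They repress the cell cycle inhibitor Cdkn1b and the receptor Kit, and promote smooth muscle proliferation after vessel injury.

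The mature sequences are shown because they set which members can share targets. They were taken from RefSeq (rat build GRCr8), in which all 6 members were matched, and are written 5′ to 3′ with the seed, bases 2 to 8, in capitals. The labels of the arrays follow an older naming, in which miR-143, miR-221 and miR-222 are the 3p strands and miR-145 is the 5p strand.
miR-126-3p: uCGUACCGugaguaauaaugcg
miR-126-5p: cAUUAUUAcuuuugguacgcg
miR-143: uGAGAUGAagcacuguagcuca
miR-145: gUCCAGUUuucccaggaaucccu
miR-221: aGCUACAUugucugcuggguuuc
miR-222: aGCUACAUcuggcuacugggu

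Only miR-221 and miR-222 shared a seed, and no other of the 693 mature rat miRNAs in that table had it. Bases 1 to 8 of this pair were identical, the first difference lay at base 9, and 11 of 21 compared positions were equal. Each of the other 4 seeds belonged to a single mature miRNA of the table. miR-126-3p lay at chr3:29813219-29813240 and miR-126-5p at chr3:29813182-29813202, both on the plus strand and within a gene record that overlaps Egfl7, an endothelial protein-coding gene. The opposite strand there holds rno-miR-126b, which is complementary to miR-126-5p over a run of 17 bases. miR-143 lay at chr18:57371373-57371394 and miR-145 at chr18:57370033-57370055, both on the minus strand and overlapping the long non-coding RNA gene Carmn, with 1278 bases between the hairpins. miR-222 lay at chrX:6022682-6022702 and miR-221 at chrX:6023246-6023268 on the plus strand, with 458 bases between the hairpins and 2 long non-coding RNA genes overlapping both.

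Each value was a threshold cycle (Ct), the number of PCR cycles at which a well passed the detection threshold. The Ct falls as the amount of RNA rises, by 1 for each log2 unit at full amplification efficiency. A Ct of 35 or more was treated as not measured. A level was the Ct of a reference minus the Ct of the miRNA, on the log2 scale, with U6 snRNA (the endogenous control of the study) or the median of the card as reference. The number of miRNA assays measured ran from 202 to 292 in LETO and from 197 to 228 in OLETF. On the card that holds the members, the U6 Ct ran from 17.5 to 19.2 in LETO and from 17.6 to 18.2 in OLETF. The median Ct of the 122 miRNAs of that card measured in all samples ran from 26.5 to 30.0 in LETO, and those of OLETF lay inside this range, up to 29.0. LETO replicate 3 stood apart with the lowest median and the most assays measured. For wells under a Ct of 28 on the other card, where assays had 2 wells, repeat wells had an SD of 0.139 cycles (55 pairs). The labels do not say whether replicates came from separate litters or days, so p-values measure only the spread between these 6 samples.

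The endothelial miR-126-3p was among the strongest signals of the array. In the LETO samples its Ct was 20.9, 20.0 and 17.9, in the order of replicates 1, 2 and 3 used throughout. In the OLETF samples it was 19.4, 20.2 and 18.6. It had the second-lowest Ct of its card in 6 of 6 samples, after the muscle miRNA miR-133a. Relative to the card median its level was 9.09, 9.56 and 8.58 in LETO and 9.48, 8.83 and 9.33 in OLETF. The groups overlapped on both scales, and the lowest Ct in each group was that of replicate 3.

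miR-126-5p, from the other arm of the same hairpin, came up later in every sample. Its Ct was 25.5, 25.0 and 21.0 in the LETO replicates and 25.1, 25.0 and 23.0 in the OLETF replicates. Its level relative to the card median was 4.54, 4.47 and 5.50 in LETO and 3.84, 4.01 and 5.01 in OLETF. Replicate 3 was the highest of each group here, while for miR-126-3p on this scale LETO replicate 3 was the lowest of all 6 samples. The miR-126-3p level exceeded that of miR-126-5p by 4.55, 5.08 and 3.07 log2 units in LETO and by 5.65, 4.83 and 4.32 in OLETF. As each assay has its own efficiency, such a gap between assays is not a ratio of molecules. Its change between samples can be read as a change in level only if both assays amplify alike, which was not tested.

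Of the smooth muscle pair, miR-145 had the lower Ct in every sample. Its Ct was 24.3, 24.7 and 20.7 in LETO and 24.5, 24.7 and 22.3 in OLETF. The Ct of miR-143 was 27.1, 27.1 and 22.6 in LETO and 26.4, 26.3 and 24.9 in OLETF. Relative to the card median, miR-145 lay at 5.71, 4.84 and 5.82 in LETO and at 4.40, 4.34 and 5.69 in OLETF. OLETF replicates 1 and 2 thus lay below all LETO samples, and OLETF replicate 3 lay among them. The level of miR-143 was 2.90, 2.38 and 3.90 in LETO and 2.53, 2.71 and 3.07 in OLETF, with all OLETF samples inside the LETO range.

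The pair with the shared seed differed most in detection. miR-222 was measured in 6 of 6 samples, with a Ct of 26.8, 26.3 and 24.4 in LETO and of 25.6, 25.8 and 24.2 in OLETF. Relative to the card median it lay at 3.25, 3.25 and 2.11 in LETO and at 3.31, 3.24 and 3.75 in OLETF. LETO replicate 3 was again apart, this time below all others. miR-221 was measured in 1 of 6 samples: it had a Ct of 30.8 in LETO replicate 3, a Ct above the limit in OLETF replicates 1 and 3 (37.0 and 36.5), and no determined well in replicates 1 and 2 of LETO or replicate 2 of OLETF. Where both had a Ct, that of miR-221 was higher than that of miR-222 by 6.46 cycles in LETO replicate 3, and by 11.3 and 12.3 cycles in OLETF replicates 1 and 3. No difference between the groups is therefore given for miR-221. Of the passenger strands, miR-145* had an assay, with 2 of 12 wells determined at a Ct of 36.8 and 37.7.

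**Figure D1:**
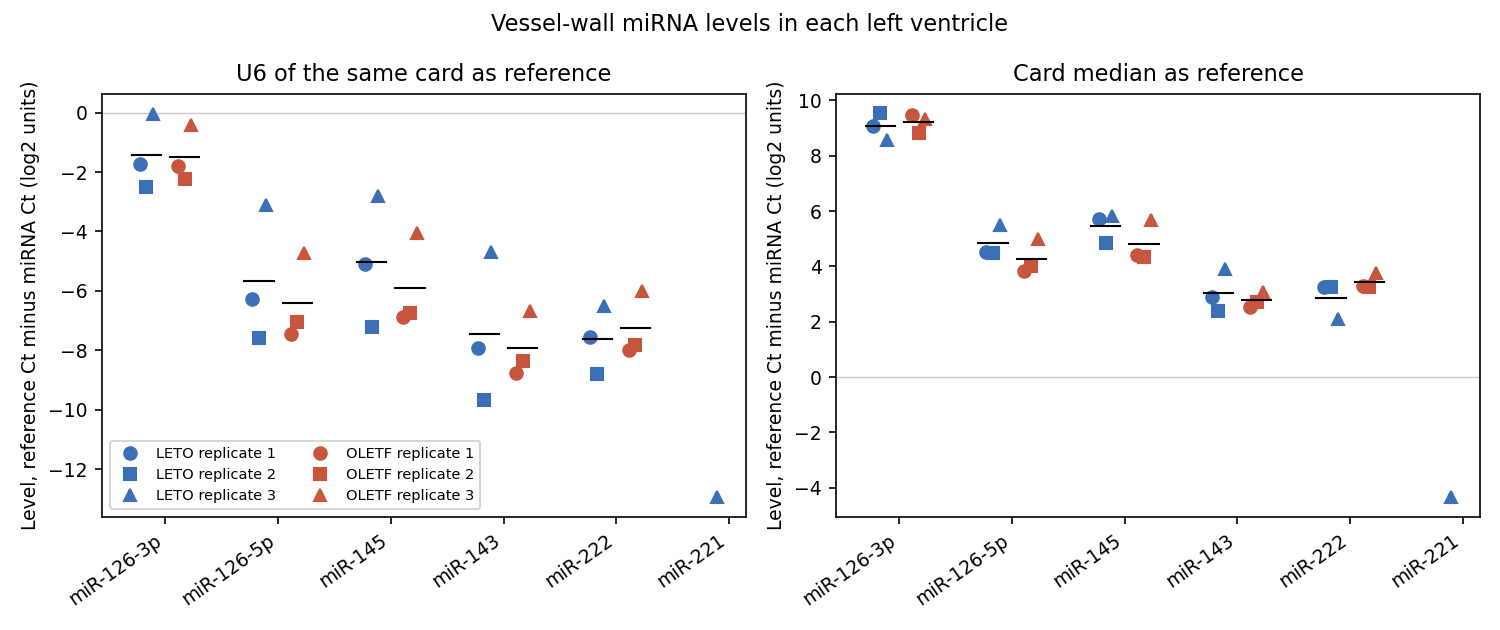
Level of each vessel-wall miRNA in each left ventricle (log2 units, reference Ct minus miRNA Ct), with U6 (left) or the card median (right) as reference; blue is LETO, red is OLETF, the symbol gives the replicate number and the black line the mean of 3. Relative to U6, replicate 3 (triangles) is the highest sample of each group for all 5 members measured in all samples, and miR-221 has a single point, LETO replicate 3.

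In order of level relative to the card median, miR-126-3p came first, followed by miR-145, miR-126-5p, and then miR-222 and miR-143, with miR-221 last where it was measured. miR-126-5p lay below miR-145 in 6 of 6 samples, by 0.31 to 1.17 log2 units. miR-222 lay above miR-143 in 5 of 6 samples, by 0.36 to 0.87, and below it by -1.79 in LETO replicate 3. The order of these neighbours is therefore not settled. With assays of unlike efficiency, the whole order is one of Ct and not of molecules.

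OLETF and LETO hearts were compared to ask whether the vessel miRNAs differ with the diabetic strain. None of the 5 tested members passed an adjusted p of 0.05 with either reference. This count of 0 stands beside 0 of 193 assays tested in all (0%) with U6, and also 0% with the card median. At an unadjusted limma p under 0.05 there were 0 members with either reference, and 2 assays with U6 and 12 with the card median over the whole array. An ordinary test per assay in place of limma also called 0. Relative to U6, 4 of 5 members had a lower mean in OLETF, against 80.8% of all assays tested. With the card median 3 of 5 did, against 67.4%. The median change over the members was -0.49 with U6, against -0.60 over all tested assays, and -0.29 against -0.31 with the card median. Over the 140 tested assays of the members' own card, the medians were -0.49 and -0.28. The median of the members thus lay where that of the other assays lay, while single members ran from -0.64 to 0.56 with the card median.

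miR-145 and miR-126-5p had the lowest differences of the 5. Relative to the card median, the LETO samples had a miR-145 level of 5.45 ± 0.54 and the OLETF samples one of 4.81 ± 0.76 (SD, 3 samples per group). The difference was -0.64 log2 units with a 95% interval from -1.78 to 0.49 (limma adjusted p = 0.636; exact permutation p = 0.2). It was lower in OLETF in 8 of 9 pairs of samples, and its difference was 0.011 with quantile normalization. miR-126-5p was 4.84 ± 0.58 and 4.28 ± 0.63, a difference of -0.56 with an interval from -1.64 to 0.52 (limma adjusted p = 0.638; exact permutation p = 0.3), lower in 7 of 9 pairs, and without LETO replicate 3 the difference was -0.22. miR-143 differed by -0.29, from -1.35 to 0.77 (limma adjusted p = 0.804; exact permutation p = 0.7), and by 0.065 when referred to U87 and snoRNA135. Without LETO replicate 3 the card-median difference of miR-143 was 0.13.

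miR-222 was the member with the highest difference. Its level was 2.87 ± 0.66 in LETO hearts against 3.43 ± 0.27 in OLETF hearts, which differ by 0.56 with an interval from -0.43 to 1.55 (limma adjusted p = 0.636; exact permutation p = 0.3), higher in 7 of 9 pairs. Without LETO replicate 3, this difference was 0.18. miR-126-3p was 9.07 ± 0.49 and 9.21 ± 0.34, a difference of 0.14 from -0.79 to 1.07 (limma adjusted p = 0.870; exact permutation p = 0.7), and its sign turned to -0.062 relative to U6 and to -0.11 without LETO replicate 3. The groups overlapped for 5 of 5 members on both scales. Over the 162 assays measured in all samples, the groups did not overlap in 0% with U6 and in 13.6% with the card median. A two-sided exact permutation test of 3 against 3 samples cannot give a p below 0.1.

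With U6 the same differences had far wider intervals. They were -0.85 for miR-145 (from -3.55 to 1.86), -0.76 for miR-126-5p (from -3.46 to 1.95), -0.49 for miR-143 (from -3.19 to 2.22), -0.062 for miR-126-3p (from -2.77 to 2.64) and 0.36 for miR-222 (from -2.35 to 3.06), each with a limma adjusted p of 0.997. The exact permutation p-values were 0.7, 0.7, 0.8, 0.9 and 0.7. The SE was 1.38 for each, as limma pooled it over all assays, and it was 0.406 to 0.496 with the card median. Without LETO replicate 3 the U6 differences were 0.28, 0.52, 0.87, 0.63 and 0.92 in the same order, all above 0. Without LETO replicate 2 they were -1.94, -1.72, -1.61, -0.60 and -0.23, all below 0. The direction relative to U6 therefore rested on single samples.

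**Figure D2:**
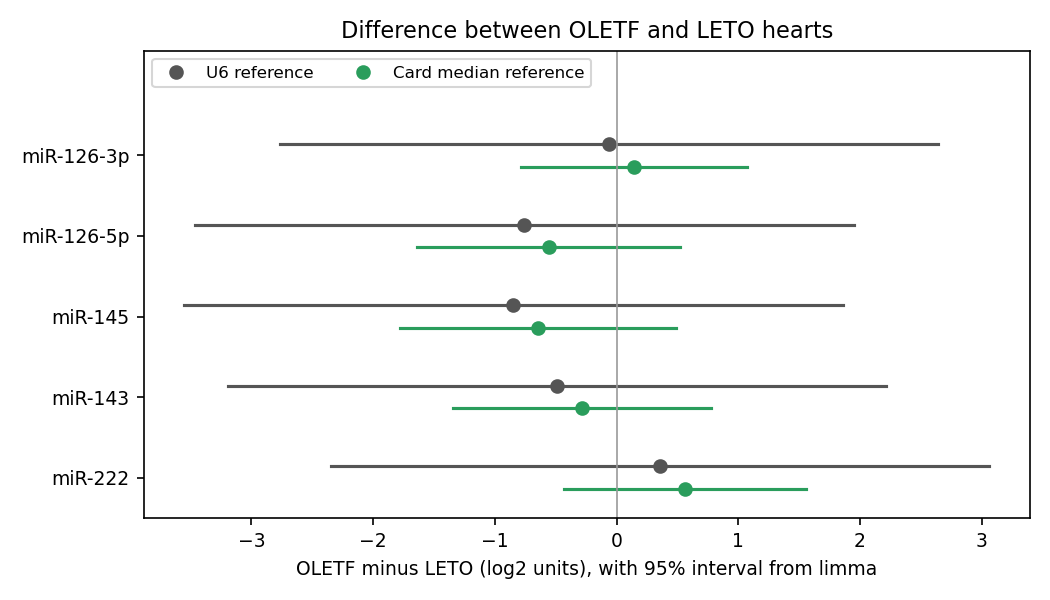
Difference between OLETF and LETO (log2 units, OLETF minus LETO) for the 5 members measured in all samples, with U6 (grey) or the card median (green) as reference; points are differences of means of 3 samples and lines are 95% intervals from limma. Every interval spans 0, and those with the card median are narrower, for example from -1.78 to 0.49 for miR-145.

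Replicate 3 of each group was entered differently from replicates 1 and 2 in the deposited ratios, on the other card, so the comparison was also made within these sets. Relative to the card median, miR-145 differed by -0.91 within replicates 1 and 2 and by -0.12 between the replicate 3 samples. For miR-126-5p these values were -0.59 and -0.50, and for miR-143 -0.017 and -0.83. miR-222 differed by 0.024 and 1.64, so on this scale its difference lay almost wholly between the replicate 3 samples. miR-126-3p took opposite signs, -0.16 and 0.75. With U6 these values were 0.28 and 0.51 for miR-222 and 0.096 and -0.38 for miR-126-3p, so the split depends on the reference. The replicate 3 values are single samples of each group and have no test.

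Endothelial and smooth muscle miRNAs were then set against each other within a sample. As all these assays are on 1 card, the reference drops out of such a difference. The mean level of the miR-126 strands exceeded that of miR-143 and miR-145 by 2.51, 3.40 and 2.18 log2 units in LETO and by 3.20, 2.89 and 2.78 in OLETF. The LETO samples held both the highest and the lowest value, and all OLETF samples lay between them. The means were 2.70 ± 0.63 and 2.96 ± 0.21 (SD, n = 3 each), a difference of 0.26, smaller than the SD in LETO. Within replicates 1 and 2 it was 0.086. Without LETO replicate 3 it was -0.00072, and without LETO replicate 2 it was 0.61. With quantile normalization it was -0.036. The score averages gaps that were not alike for both strands. miR-126-3p minus miR-145 differed by 0.79 between the groups, and miR-126-3p minus miR-143 by 0.43. miR-126-5p minus miR-143 differed by -0.27, and miR-126-5p minus miR-145 by 0.089. The groups overlapped for each of these gaps. The score was taken over chosen members, and neither the score nor these gaps have a test.

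The strands and clusters also varied within themselves. The miR-126-3p minus miR-126-5p gap averaged 4.23 ± 1.04 in LETO against 4.93 ± 0.67 in OLETF, which differ by 0.70. It was smallest in replicate 3 of each group (3.07 and 4.32). Without LETO replicate 3 the gap differed by 0.12 between the groups. miR-143 minus miR-145 averaged -2.40 ± 0.45 and -2.04 ± 0.52, a difference of 0.36, and this was 0.89 within replicates 1 and 2 and -0.70 between the replicate 3 samples. miR-222 minus miR-145 was -2.46, -1.59 and -3.71 in LETO and -1.09, -1.10 and -1.95 in OLETF. It was higher in OLETF in 8 of 9 pairs, and its difference of 1.21 compares with an SD of 1.06 in LETO. This difference was 0.65 without LETO replicate 3 and 0.93 within replicates 1 and 2. miR-222 minus miR-126-3p was steadier, from -6.46 to -5.58 over all samples. This gap was also higher in OLETF in 8 of 9 pairs, with a difference of 0.42 against an SD of 0.33 in LETO. The difference was 0.29 without LETO replicate 3 and 0.19 within replicates 1 and 2. miR-222 minus miR-143 differed by 0.85, higher in OLETF in 6 of 9 pairs, and by 0.047 without LETO replicate 3. miR-222 minus miR-126-5p differed by 1.12, higher in 8 of 9 pairs, and by 0.41 without LETO replicate 3. The groups overlapped for each of these gaps. The miR-222 gaps were not among the differences set at the start. That with miR-145 sets the member with the highest difference against the one with the lowest.

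**Figure D3:**
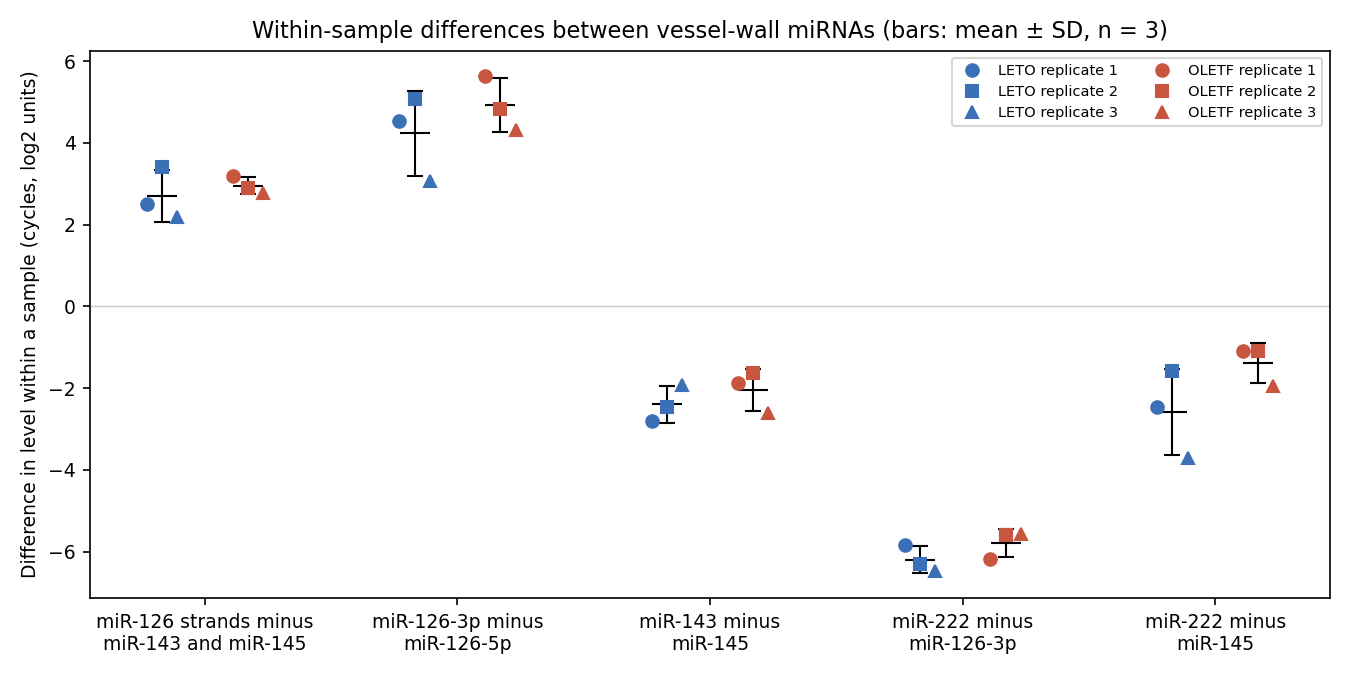
Differences in level between vessel-wall miRNAs within a sample (cycles, log2 units), free of the reference; blue is LETO, red is OLETF, symbols give the replicate number and black bars the mean ± SD of 3 samples. The groups overlap in every column, and LETO replicate 3 (blue triangles) has the lowest value in 4 of 5 columns.

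How closely the members moved together was described by the SD, over the 6 samples, of the Ct difference between both assays of a pair. The median of this SD was 0.765 cycles over all 7381 pairs of the 122 assays. The closest pairs of members were miR-126-5p with miR-143 (0.323), miR-126-5p with miR-145 (0.328), miR-126-3p with miR-222 (0.378) and miR-143 with miR-145 (0.477). The strands of the miR-126 hairpin were farther apart (0.871), and 97 of the 122 assays moved more closely with miR-126-3p than miR-126-5p did. The other 5 pairs ran from 0.879 to 1.02. This grouping was noticed in these values and has no test.

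That pattern came mostly from LETO replicate 3. Without it, the SD of the miR-126 strands was 0.514, that of miR-126-3p and miR-143 0.490, and that of miR-126-3p and miR-145 0.727. Those of miR-222 fell by more, to 0.203 with miR-143, 0.345 with miR-126-5p and 0.582 with miR-145. The 4 closest pairs kept an SD of 0.334 to 0.507, and the median of all pairs was 0.605. miR-143 and miR-222 were then the closest pair of members, with 2 assays closer to miR-143 than miR-222 was.

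LETO replicate 3 differed in Ct from replicates 1 and 2 by an unequal amount for each member. Its Ct lay below their mean by 2.53 cycles for miR-126-3p and 2.13 for miR-222, and by 4.27 for miR-126-5p, 4.54 for miR-143 and 3.81 for miR-145. The median over the 122 assays was 3.30, and all 122 lay below. Among the controls of the card, U6 lay lower by 0.443, while U87 lay lower by 3.16, snoRNA135 by 3.79 and Y1 by 6.52. OLETF replicate 3 showed smaller values, with a median of 1.34, and 1.18 for miR-126-3p, 1.48 for miR-222, 2.09 for miR-126-5p, 1.46 for miR-143 and 2.33 for miR-145. There U6 lay higher, by -0.432, and U87, snoRNA135 and Y1 lay lower by 0.967, 1.90 and 3.99. The part of RNA amount or quality in these values was not tested.

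**Figure D4:**
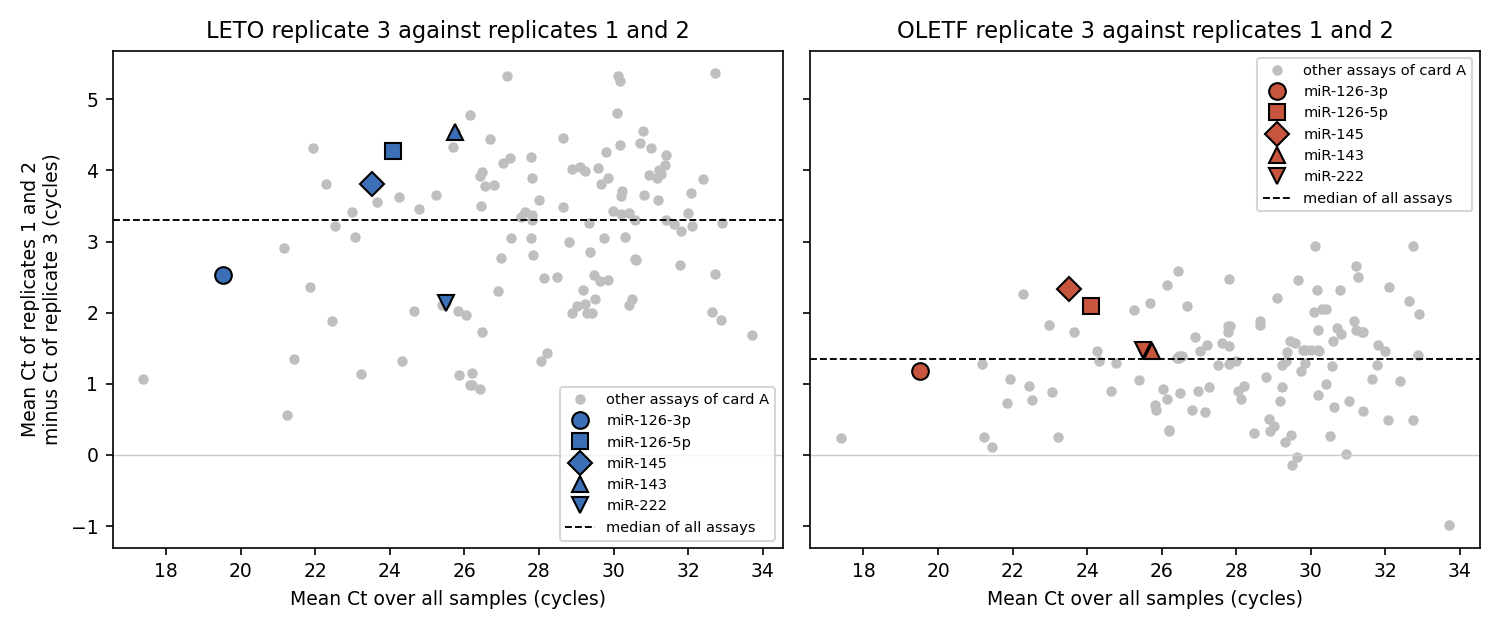
Mean Ct of replicates 1 and 2 minus the Ct of replicate 3 (cycles) against the mean Ct over all samples, for 122 miRNA assays of the card; coloured symbols are the 5 vessel-wall miRNAs, grey points the other assays and the dashed line the median of all. In LETO, miR-126-5p, miR-143 and miR-145 lie above the median of 3.30 and miR-126-3p and miR-222 below it; in OLETF the median is 1.34.

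The assays most like each member were named by the smallest SD of the Ct difference on the same card. miR-126-3p was followed most closely by miR-210 (0.192), a miRNA induced by low oxygen, miR-351 (0.197) and miR-24 (0.209). miR-126-5p was nearest to miR-195 (0.143), miR-99a (0.151) and miR-21 (0.173), and miR-143 to miR-21 (0.170), miR-29a (0.215) and miR-497 (0.257). miR-145 was nearest to miR-339-5p (0.132), the leukocyte miRNA miR-142-3p (0.149) and miR-328 (0.214). miR-222 was nearest to miR-132 (0.125), miR-17 (0.245) and miR-146a (0.261). These are the closest of the 122 assays over 6 samples, with the members themselves left out. All were read from 1 card per sample, and they are a description only. In LETO replicate 3 the nearest assays lay lower by amounts near those of their members: 2.49 cycles for miR-210, 4.33 for miR-195, 4.45 for miR-21, 3.95 for miR-339-5p and 2.12 for miR-132. The mean Ct of miR-339-5p was 31.3 and that of miR-351 31.8. Repeat wells under a Ct of 35 on the other card had a single-well SD of 0.486 cycles (189 pairs), above every SD named here. Under a Ct of 28 it was 0.139 (55 pairs), and some nearest pairs lay there, such as miR-126-5p and miR-195 (mean Ct 24.1 and 25.7). The SDs named here are of a difference between assays, so a single-well SD is not a like measure.

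Other miRNAs known from vessels gave the setting. A list of 26 names known from endothelium and angiogenesis had 21 tested assays, of which 0 passed (limma). Relative to U6, 5 lay higher and 16 lower in OLETF (median -0.63), and with the card median 10 and 11 (median -0.42). Its highest levels were those of miR-24 and miR-17, with differences of 0.13 (SE 0.361) and 0.28 (SE 0.430) relative to the card median. Its smallest p relative to U6 was that of miR-23a, which differed by -1.25 (SE 0.764) with the card median. Of a list of 12 names known from the smooth muscle phenotype, 13 assays were tested and 0 passed. There 12 lay lower and 1 higher with U6 (median -0.67), and 11 and 2 with the card median (median -0.47). Over all 193 assays tested, 80.8% lay lower with U6 (median -0.60) and 67.4% with the card median (median -0.31), and 0 passed. miR-10a, miR-24 and miR-31 are in both lists. The smooth muscle list also holds heart muscle miRNAs, with miR-1 entered by its mouse and its rat assay. miR-133a differed by -0.22 (SE 0.635), and the mouse assay of miR-1, which had the smallest p of this list with U6, by -1.11 (SE 0.685), both relative to the card median with a limma adjusted p of 0.870 and 0.632.

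Markers of other cells of the ventricle were measured beside the vessel miRNAs. All 7 cardiomyocyte assays were tested and lay lower in OLETF with both references (median -0.54 with U6 and -0.34 with the card median), and 0 passed. Over all assays tested, 80.8% and 67.4% lay lower, with medians of -0.60 and -0.31. The highest of these markers were miR-133a and the rat assay of miR-1, the latter with a difference of -0.54 (SE 0.336) relative to the card median. miR-499, named after its value was seen, differed by -0.90 (SE 0.342; limma unadjusted p = 0.029, adjusted p = 0.622) relative to the card median and by -1.10 relative to U6. Summed on the linear scale relative to U6, the cardiomyocyte markers ran from 1.03 to 2.79 in LETO and from 1.15 to 1.99 in OLETF. This sum was mostly miR-133a, whose mean level relative to U6 was 0.89 in LETO and 0.46 in OLETF. The next highest, the rat assay of miR-1, had -4.10 and -4.85, and miR-1 entered by both its assays. Because assays differ in efficiency, no such sum is an amount of molecules. Summed in the same way, the fibroblast markers ran from 0.00112 to 0.0213 and from 0.00191 to 0.00910. Of these 3, miR-199a-3p differed by -0.22 (SE 0.455), miR-214 by 0.38 (SE 0.388) and miR-21 by -0.34 (SE 0.470), relative to the card median. Of the 5 leukocyte markers 4 were tested and 0 passed. Relative to the card median, 3 of them lay higher, miR-150 at 0.19 (SE 0.598), miR-223 at 0.090 (SE 0.457) and miR-155 at 0.90 (SE 0.454), and miR-142-3p lay lower at -0.49 (SE 0.482). With U6, 1 lay higher and 3 lower. The sum of the leukocyte markers ran from 0.0615 to 0.160 in LETO and from 0.0868 to 0.132 in OLETF. Of the 3 red cell markers 1 was tested, miR-486, which differed by 0.47 (SE 0.622) relative to the card median. miR-451 was measured in 1 LETO sample and 0 OLETF samples, and miR-144 had no assay, so red cells are poorly covered. The liver marker miR-122 and the islet marker miR-375 were not measured in any sample. The sums overlapped between the groups for each cell type measured. Relative to U6 the groups did not overlap in 0% of the 162 assays measured in all samples, so this overlap says little about cell content. The part of these cell types in the differences of the vessel miRNAs was not tested.

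The authors' deposited table gave OLETF over LETO ratios of 0.958 for miR-126-3p, 0.591 for miR-126-5p, 0.712 for miR-143, 0.556 for miR-145 and 1.28 for miR-222. To 3 significant digits these equal 2 raised to the U6 differences above, and are no separate evidence. The ratio of 0.456 that the authors' deposited table gave for miR-221 was obtained when its 3 undetermined wells were counted as 40 cycles, and so rests on LETO replicate 3. The authors' deposited table listed 0.274 and 0.470 for the wells of miR-145*, where 5 of 6 samples were undetermined in each well.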

How the data were processed

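Per the labels' protocols, miRNA was isolated with mirVana reagents, converted to cDNA with stem-loop primer pools and measured on TaqMan Rodent arrays (7900HT), normalized to U6. The label field names SYBR Green instead. Baseline and threshold settings are not given in the sources used here. The deposited Ct table held 768 wells per sample on 2 cards. The deposited normalized table held delta Ct, a log2 quantity with reversed sign, equal to Ct minus the mean of 4 U6 wells of the card with an undetermined assay as 40 (largest deviation 3.75e-06 over 3504 values). A separate deposited table gave the OLETF over LETO ratio on the linear scale for each well. On the second card, 380 of 380 ratios equalled the recomputed ones (tolerance 0.001 on the log2 scale) when replicate 3 of each group entered as the mean of the assay's wells, and 194 when all entered well by well.

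Determined wells were averaged, values at a Ct of 35 or more dropped, and assays measured in at least 2 of 3 samples per group (193) compared with limma 3.58.1 in R 4.3.3, with Benjamini-Hochberg adjustment over all of them at 0.05. The card median was taken over assays measured in all 6 samples. Single members were also compared with two-sided exact permutation tests. Alternatives were other references, Ct limits of 32 and 38, the deposited delta Ct, samples left out, blocks, an ordinary test and array weights. Members always named, the 3 nearest assays of each, and 2 highest and 1 smallest p per list were the rule for named miRNAs. Members and lists were chosen with earlier results of these data known.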

Additional observations from a re-analysis of the deposited data

How the results depend on the processing

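The count of members at adjusted p under 0.05 (limma) was 0 in all 29 alternatives, while over all assays 1 passed with the replicate block, 1 with replicate 3 as a batch block and 32 with array weights, none of them a member. The smallest adjusted p of a member was 0.109, for miR-145 with array weights. Its difference there was -1.52 (limma unadjusted p = 0.029), and 64 of 193 assays had an unadjusted p under 0.05 in that setting. With the per-card median without OLETF replicate 3, miR-145 differed by -1.09 (limma unadjusted p = 0.0496, adjusted p = 0.427). There 15 of 171 assays had an unadjusted p under 0.05. The U6 difference of miR-126-3p (-0.062) turned in sign with the per-card median (0.14, also with the replicate block or the ordinary test, and 0.039 with array weights). It also turned with the whole-array median (0.42), with the other small RNA controls (0.49) and within replicates 1 and 2 (0.096). With quantile normalization it was 0, which was fixed in advance because miR-126-3p kept the same rank in all samples. miR-143 turned to 0.065 with the other small RNA controls and 0.24 within replicates 1 and 2, miR-145 to 0.011 with quantile normalization and miR-222 to -0.20 with array weights. With 1 sample left out, the U6 difference ran from -0.60 to 0.63 for miR-126-3p, from -1.72 to 0.52 for miR-126-5p, from -1.61 to 0.87 for miR-143, from -1.94 to 0.28 for miR-145 and from -0.28 to 0.92 for miR-222. With the per-card median it ran, in this order, from -0.11 to 0.38, -0.92 to -0.22, -0.63 to 0.13, -1.09 to -0.41 and 0.18 to 0.75. For miR-126-3p it was 0.15 without LETO replicate 1, and 0.0062, 0.33 and 0.085 without OLETF replicates 1, 2 and 3. miR-143 minus miR-145 moved from 0.36 to -0.18 with quantile normalization and 0.89 within replicates 1 and 2. Deviations of same-numbered samples from their group means correlated at -0.088, 0.23 and 0.62 over 162 assays, which does not make pairs of them. In this balanced design a replicate block cannot move a difference of means (miR-145 -0.85), and it changed the U6 SE from 1.38 to 0.808. The causes were not tested. The added card-median alternatives and the pair SDs and miR-222 gaps without single samples were chosen after seeing the data. The miR-222 gaps themselves were not among the differences set at the start. No alternative gave a value for miR-221, measured in 1 sample.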
